A study of Mus musculus with 4 samples.

Results

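The genes described here are those of mouse chromosome 10, which made up 837 of the 17360 genes that were placed on a named chromosome and tested in at least 1 of 2 comparisons. A gene was taken in when a gene probe at a chromosome 10 position was well above background in at least 1 genotype on both arrays of a comparison, and each gene name was read by its brightest such probe. The chromosome was chosen by its G1KO values, since its median log2 ratio in the G1KO comparison, -0.29, was the largest in size among the 19 autosomes, ahead of chromosome 3 at 0.14. The values of that comparison therefore chose the genes and are given as a description, whereas the G2KO comparison took no part in the choice. Of the 837 genes, 797 were tested in the G1KO comparison, 795 in the G2KO comparison and 755 in both. The array held 1954 gene probes for 1301 gene names on chromosome 10, of which 1305 probes passed, and 304 of the genes had more than 1 passing probe. Current names were found for 682 genes, all of them on chromosome 10 in RefSeq as well, and 155 kept the name in the scanner files.

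Messenger RNA was measured in mouse embryonic fibroblasts (MEFs), connective-tissue cells grown from mid-gestation embryos and harvested untreated in logarithmic growth. The CycG1-/- culture (G1KO), in which a neomycin cassette replaced every coding exon of Ccng1, was compared with a CycG1+/+ culture, and the CycG2-/- culture (G2KO) with a CycG2+/+ culture. The strain field gives C57BL/6J for all 4 genotypes, although the source names of the G2KO arrays read C57BL/7J. Each genotype was 1 culture without a biological replicate, and each comparison had 2 two-colour arrays carrying the same pair of RNAs with the dyes exchanged. The log2 ratio is knockout over wild type (WT), ± is the SD between these 2 arrays and is technical, and no p-value can be given. A gene was called when it differed by 2-fold or more in the same direction on each array. A culture is a mixture of cells, so that fewer cells of a type and less RNA per cell cannot be told apart in any value below.

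All 4 arrays lay on 1 slide in 1 scan, with 25366 to 27757 of 43379 gene spots well above background per channel. The targeted genes lie elsewhere, Ccng1 on chromosome 11 and Ccng2 on chromosome 5. Ccng1 had a log2 ratio of -6.67 ± 0.13 in G1KO. Ccng2 had 0.28 and -0.10 on the G2KO arrays, so its probe showed no loss, and whether that probe lies within the disrupted part of the gene is not given in the sources used here. On these arrays the knockout culture of the second comparison is thus known by its label alone, as the RNA labelled G2KO. The paper describes genotyping of its G2KO MEFs by RT-PCR with CycG2 primers and a western blot with an anti-CycG2 antibody. Whether those cells were the culture hybridised here is not given. Xist was higher in both knockouts, at 7.54 ± 0.43 and 7.24 ± 0.46, and Eif2s3y and Kdm5d of the Y chromosome were not above background in either, so sex differed along with genotype in both comparisons and the 2 cannot be told apart. All 10 fibroblast markers were above background in all 4 cultures, but their levels differed, with a summed log2 level of 17.8 in G2KO against 19.2 in its WT and 18.4 in G1KO against 18.6. In G2KO Pdgfra had a log2 ratio of -4.63, Thy1 -3.22, Col3a1 -2.90, Col1a2 -2.31 and Prrx1 -2.03, whereas in G1KO Pdgfra had 0.92 and Col3a1 -0.94. Of the neural markers Sox2 had 5.59 and Nes 3.37 in G2KO, and Nes had 2.34 in G1KO, where Sox2 was not above background. Map2 and Tubb3 of the same list had -1.24 and -0.73 in G2KO, and -0.54 and 0.23 in G1KO. Of 5 mesothelial markers, 5 were above background in G1KO and its WT, where their summed log2 level was 14.4 and 17.6, and 1 in the cultures of the G2KO comparison, where Wt1, Upk3b, Lrrn4 and Gpm6a were not. Of 5 epithelial markers 4 were above background in G1KO and its WT, 1 in G2KO and 2 in its WT, with Epcam in none, and Krt19 had 2.90 in G1KO. The others went the other way in G1KO, with -1.14 for Krt8, -0.32 for Cdh1 and -0.08 for Krt18. In G2KO Krt19 had -1.40 and Krt18 -0.28. The part of all these markers in the values below was not tested.

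A chromosome is a physical unit and not a pathway, and the genes of chromosome 10 have many unrelated roles. Among them are the cyclin-dependent kinases Cdk1, Cdk2 and Cdk4, which drive the cell cycle, and Mdm2, the ubiquitin ligase that holds p53 in check and on which cyclin G1 is known to act. Chromosome 10 also carries fibroblast matrix genes such as decorin (Dcn), lumican (Lum) and the collagen VI chains, and Plagl1, an imprinted zinc finger gene that restrains growth.

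Promoters of 4 genes to which the comparisons below return are shown first, as RefSeq gives them for build GRCm38.p6, read 5′ to 3′ on the strand of the gene from 250 bases before to 50 bases after the start. They were chosen because Plagl1 differed in opposite directions in the 2 comparisons, Col18a1 was higher in both, Gadd45b was among the 10 genes furthest below WT in G1KO of those above background in both genotypes, and Mdm2 acts in the pathway of the cyclin G proteins. Capitals mark the TATA box spelled TATAAA, the GC box spelled GGGCGG and the E box spelled CACGTG on either strand, which occur in 13.6%, 36% and 7.14% of all 31396 promoters of chromosomes 1 to 19 in the table.
Plagl1, chr10:13090582-13090881, plus strand: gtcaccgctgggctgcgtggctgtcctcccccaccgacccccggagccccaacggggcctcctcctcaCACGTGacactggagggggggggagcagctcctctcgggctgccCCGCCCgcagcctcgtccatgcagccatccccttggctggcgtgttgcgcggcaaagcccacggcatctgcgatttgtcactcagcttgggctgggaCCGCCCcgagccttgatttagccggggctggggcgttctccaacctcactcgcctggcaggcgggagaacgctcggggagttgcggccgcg
Col18a1, upstream start, chr10:77166481-77166780, minus strand: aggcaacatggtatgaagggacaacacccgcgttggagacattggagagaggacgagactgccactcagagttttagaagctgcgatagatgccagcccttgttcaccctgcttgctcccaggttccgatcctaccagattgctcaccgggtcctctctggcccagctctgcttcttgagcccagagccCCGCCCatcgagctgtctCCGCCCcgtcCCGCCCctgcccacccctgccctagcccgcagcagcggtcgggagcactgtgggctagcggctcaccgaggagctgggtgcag
Col18a1, downstream start, chr10:77113656-77113955, minus strand: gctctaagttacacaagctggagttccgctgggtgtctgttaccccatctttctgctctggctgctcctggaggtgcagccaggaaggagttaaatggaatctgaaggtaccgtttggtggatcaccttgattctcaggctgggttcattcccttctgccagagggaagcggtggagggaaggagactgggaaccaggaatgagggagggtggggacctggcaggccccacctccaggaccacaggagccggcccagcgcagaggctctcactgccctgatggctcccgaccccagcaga
Mdm2, chr10:117710709-117711008, minus strand: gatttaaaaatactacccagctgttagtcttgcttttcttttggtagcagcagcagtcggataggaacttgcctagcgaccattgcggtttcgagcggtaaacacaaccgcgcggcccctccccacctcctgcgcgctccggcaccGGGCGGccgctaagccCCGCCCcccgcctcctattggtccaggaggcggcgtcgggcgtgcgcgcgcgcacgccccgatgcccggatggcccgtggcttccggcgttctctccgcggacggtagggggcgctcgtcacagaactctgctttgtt
Gadd45b, chr10:80929841-80930140, plus strand: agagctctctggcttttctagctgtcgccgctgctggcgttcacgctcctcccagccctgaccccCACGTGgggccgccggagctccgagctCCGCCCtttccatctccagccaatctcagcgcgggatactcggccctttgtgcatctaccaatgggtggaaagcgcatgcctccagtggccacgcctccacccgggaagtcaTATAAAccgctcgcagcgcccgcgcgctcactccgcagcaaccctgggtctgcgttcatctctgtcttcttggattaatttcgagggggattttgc
The Plagl1 promoter held 2 GC boxes and 1 E box, and that of Mdm2 held 2 GC boxes. The upstream start of Col18a1 had 3 GC boxes and the downstream start had none of the 3 motifs. Gadd45b alone of the 5 windows had a TATA box. These matches are a description of the windows. Promoters were found for 562 of the 833 distinct gene names, or 67.5%. Promoter make-up was not compared between chromosome 10 and the rest, so nothing is said of it.

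In G1KO the chromosome 10 genes as a body lay below WT. Their median log2 ratio was -0.29 on each of the 2 arrays, a level 1.22-fold lower, against 0.005 for the 15133 genes of the other 18 autosomes, whose own medians ran from -0.11 on chromosome 13 to 0.14 on chromosome 3. Only 21.5% of the 797 genes had a ratio above 0, against 35.5% to 63.9% on the other autosomes. The 724 genes that were not called had a median of -0.26. Against the other autosomes the 5th, 10th and 25th percentiles each differed by -0.36 on the log2 scale, the median by -0.29 and the 95th percentile by -0.18. Restricting the genes to the 728 above background in both genotypes gave a median of -0.32. On the arrays, 717 of the 797 genes had the same sign with either dye orientation, and the median SD between arrays was 0.084.

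**Figure D1:**
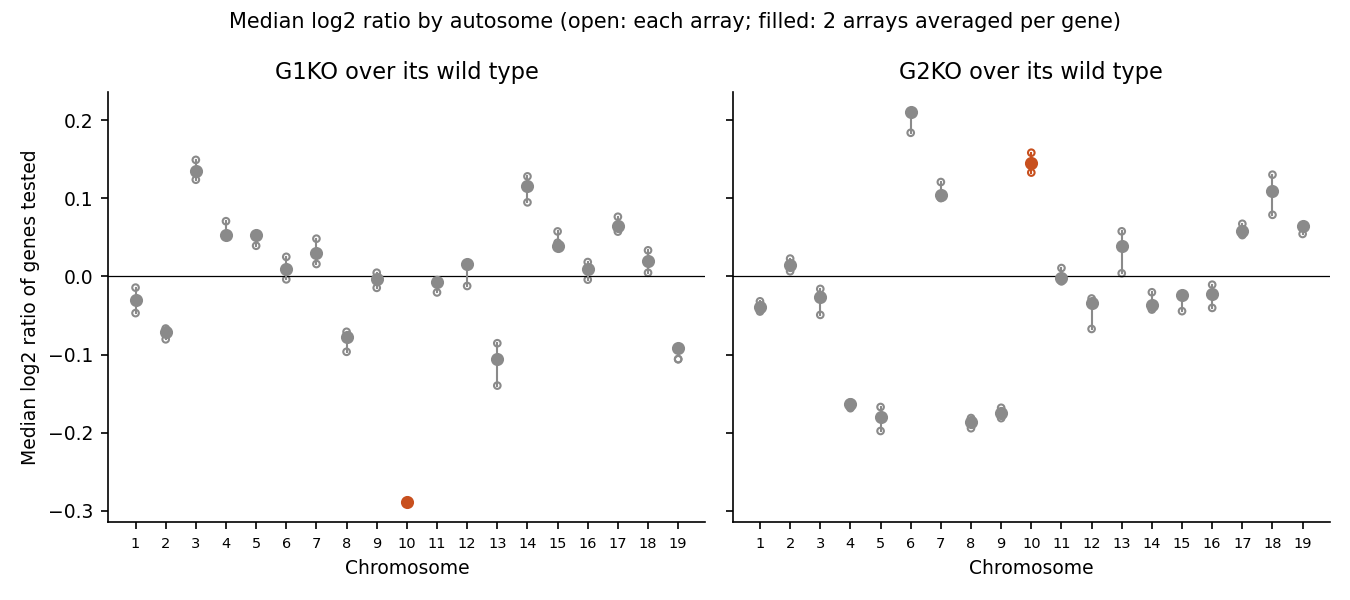
Median log2 ratio of the genes tested on each autosome, in G1KO over its WT (left) and G2KO over its WT (right). Open circles are the 2 arrays taken singly, filled circles the arrays averaged per gene, and chromosome 10 is orange. Chromosome 10 is the lowest autosome on the left, at -0.29, and the second highest on the right, at 0.14, below chromosome 6 at 0.21.

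In the RNA labelled G2KO, which had no part in the choice, the chromosome 10 genes lay above WT. Their median was 0.14, with 0.16 and 0.13 on the single arrays, against -0.02 for the 15093 genes of the other autosomes. A ratio above 0 was found for 67.7% of the 795 genes, against 28.1% to 70.6% on the other autosomes. In size this was no exception among the autosomes of that comparison, for chromosome 10 ranked 6 of 19 by the size of its median, behind chromosomes 6, 8, 5, 9 and 4. The other autosomes ran from -0.19 on chromosome 8 to 0.21 on chromosome 6. The 5th percentile of chromosome 10 was higher than that of the other autosomes by 0.21, the median by 0.17 and the 95th percentile by 0.18. The 732 genes that were not called had a median of 0.14.

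**Figure D2:**
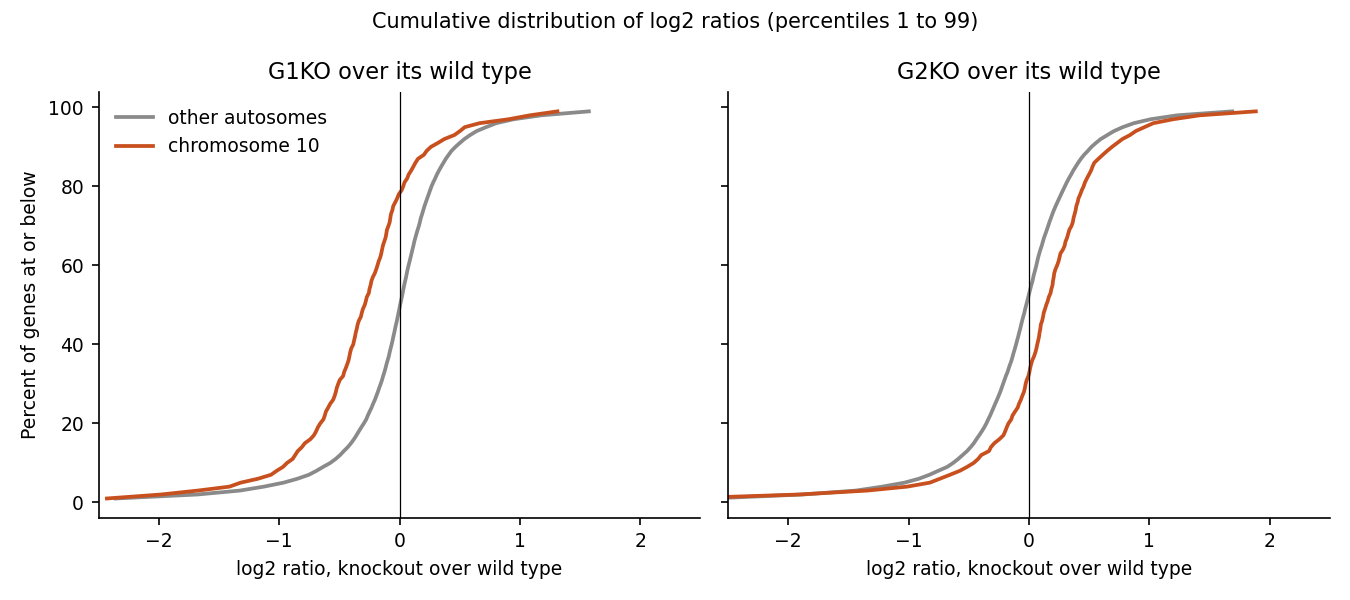
Percentiles 1 to 99 of the log2 ratios of chromosome 10 genes (orange) and of the genes of the other autosomes (grey), with the log2 ratio on the x axis and the percent of genes at or below it on the y axis. The orange curve lies to the left of the grey curve over most of its length in G1KO and to the right in G2KO, and the medians differ by -0.29 and 0.17.

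Both displacements ran along the chromosome. Genes were placed in bins of 10 Mb by the probe positions of the array design (build mm8), and a bin was used where it held at least 20 genes. In G1KO all 12 such bins had a median below 0, from -0.53 in the bin of 10 to 20 Mb, where 9 of 41 genes, or 22.0%, were called lower, to -0.12 at 60 to 70 Mb. On the other autosomes 46.3% of 214 bins were below 0, and the lowest was -0.28. The largest share called lower in a bin elsewhere was 18.3%, and over all genes it was 4.48%. In the RNA labelled G2KO all 12 bins were above 0, from 0.08 at 30 to 40 Mb to 0.38 at 90 to 100 Mb, whereas 44.8% of 212 bins elsewhere were above 0 and the highest was 0.36. The bin of 100 to 110 Mb held too few genes, 18 and 19, and had medians of -0.43 in G1KO and -0.07 in G2KO. Medians over 50 neighbouring genes were below 0 in 741 of 748 windows in G1KO and above 0 in 738 of 746 in G2KO, though these windows overlap and share genes. In the bin of 60 to 70 Mb 9 of 71 genes, or 12.7%, were called higher in G2KO, against 2.74% of all genes tested, and 2 of the 212 bins elsewhere had as large a share or a larger one, up to 19%.

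**Figure D3:**
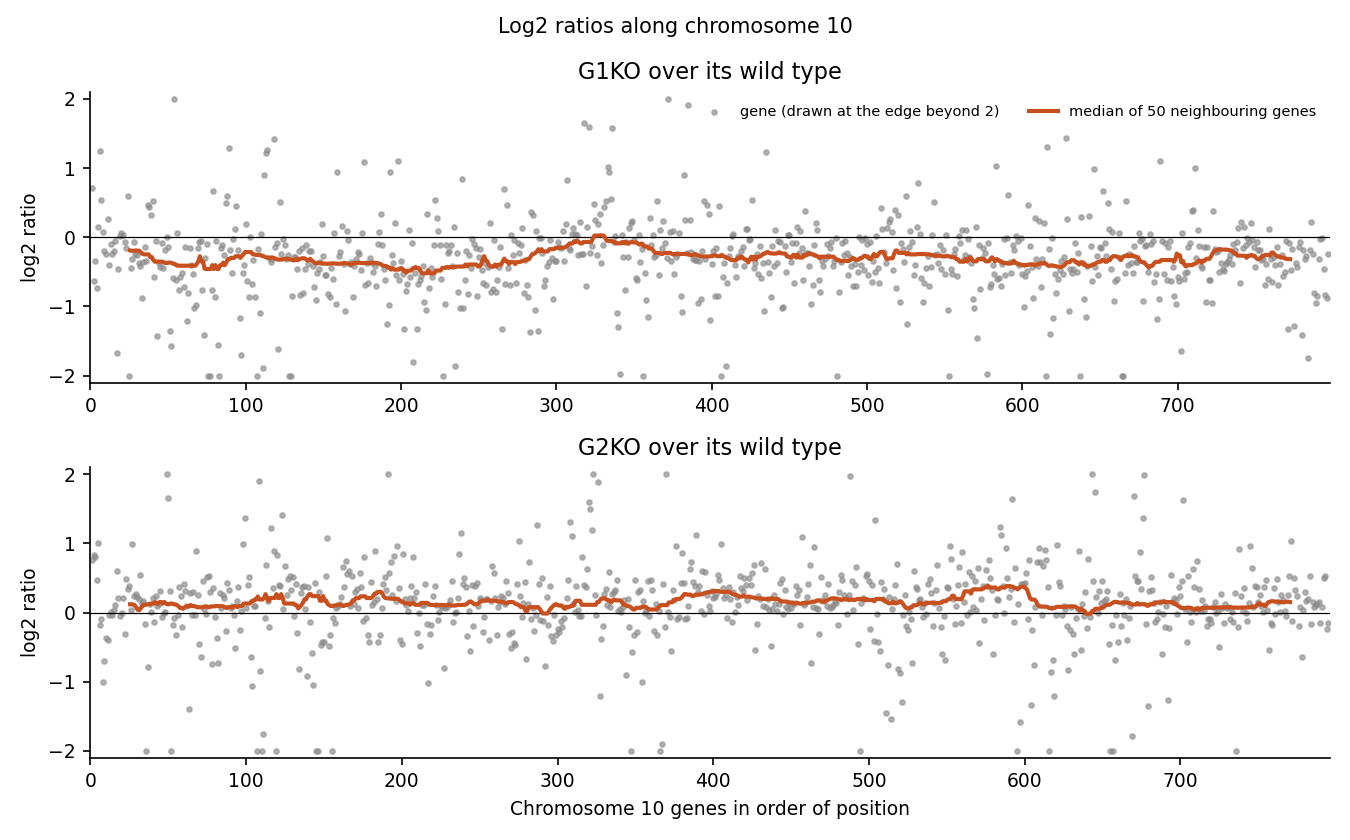
Log2 ratios of the chromosome 10 genes in order of position (x axis, rank), 797 in G1KO (top) and 795 in G2KO (bottom). Grey points are genes, drawn at the edge where they lie beyond 2, and the orange line is the median of 50 neighbouring genes. The line lies between -0.52 and 0.03 in G1KO and between -0.02 and 0.38 in G2KO.

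The displacement differed with the brightness of the probe. When the genes were put in 3 equal groups by brightness, the dimmest 266 had a median of -0.08 in G1KO, the middle 265 had -0.38 and the brightest 266 had -0.40. In G2KO the medians were 0.04, 0.17 and 0.25 over 265 genes each. The same groups on the other autosomes lay between -0.03 and 0.01 in both comparisons.

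Signals of the 4 cultures were set side by side over the 755 genes tested in both comparisons, each as the chromosome 10 median less that of the other autosomes. On the log2 scale G1KO less its own WT gave -0.31, and G1KO less G2KO gave -0.26. G1KO less the WT of the G2KO comparison gave -0.07, which ranked 5 of the 19 autosomes from the lowest. The WT of the G1KO comparison exceeded the WT of the G2KO comparison by 0.22, and G2KO exceeded its own WT by 0.17. The WT of the G1KO comparison less G2KO gave 0.04, which ranked 13 of 19. The 2 WT cultures, of the same stated strain, thus stood apart on chromosome 10 by more than G2KO and its WT did, and by less than G1KO and its WT did. Between the WT cultures chromosome 10 ranked 18 of 19 from the lowest. Chromosome 9, at -0.27, and chromosome 19, at 0.23, stood further apart. Only differences within a comparison were read on the same arrays, and the differences share cultures, so that they are not independent of each other.

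By single genes, 57 of 797 chromosome 10 genes were called lower in G1KO, where 4.48% of all genes tested were called lower, and 16 were called higher, where 2.48% of all genes were. These shares belong to the comparison that chose the chromosome. Higher genes were 21.9% of the calls, whereas 410 of the 1150 calls over all genes tested were higher. With the scanner software's own ratio the share was 32.6%. On the other autosomes 5.45% of genes were then called higher and 6.63% lower. In G2KO 32 of 795 genes were called higher, or 4.03%, against 2.74% of all genes tested, and 31 were called lower, or 3.90%, against 4.84%. On the other autosomes the share called higher ran from 1.73% to 4.78% and the share called lower from 1.40% to 6.77%, so that both shares of chromosome 10 lay within the range of single chromosomes. At the edge of the call stood Serinc1, called at -1.02 in G1KO, and Stx7, not called at -1.10 because one array gave -0.92. On the higher side Mettl24 was called at 1.08 and Hmga2, at 1.11, was not, with 0.83 on one array. In G2KO Tspan15 was called at 1.04 and Pa2g4, at 1.03 with 0.90 on one array, was not.

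Among genes above background in both genotypes, Vnn1, Dcn and Tspan8 stood furthest below WT in G1KO. Vnn1, a membrane-bound pantetheinase, had -5.14 and -5.36 on the 2 arrays, a mean of -5.25 ± 0.15. Dcn, the small proteoglycan that binds collagen fibrils, had -3.96 and -4.13 and a mean of -4.05 ± 0.12. Tspan8, a tetraspanin, had -3.91 and -4.11. In these genes both arrays lay far below the median of the chromosome. A second probe of Dcn gave -0.89 in the same comparison, so the 2 probes of the gene disagreed in size though not in direction. The receptor-type phosphatases Ptprq and Ptprb had -2.80 ± 0.11 and -2.57 ± 0.09, and the other 2 probes of Ptprb gave -1.20 and -0.32. Perp, a p53 target of cell adhesion and death, had -2.43 ± 0.10. Gadd45b, a stress sensor of the growth arrest and DNA damage family, had -2.29 and -2.33, and its second probe gave -1.80. Timp3, the matrix-bound inhibitor of metalloproteinases, had -2.26 and -2.29. Fam184a had -2.46 ± 0.04, with -1.02 at its second probe, and the transcript named LOC675366 had -2.42 ± 0.10, although its probe begins at 19831295, beside that of Map3k5 at 19830084, which had -1.55, and the 2 may read the same transcript. Mesothelial markers were lower as well in G1KO, with -2.79 for Msln and -4.25 for Upk3b, and their part in these differences was not tested.

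On the same terms Plagl1 and S100b stood furthest above WT in G1KO. Plagl1 had 2.63 and 2.66 on the arrays, a mean of 2.64 ± 0.02, and its second probe gave 0.34. S100b, a calcium-binding protein of glia and other cells, had 2.47 and 2.74. Col18a1, the collagen whose end fragment is endostatin, had 1.87 and 1.95, and Egr2, a zinc finger factor of early growth response, had 1.70 and 1.61. Then came Rtkn2 at 1.59, the membrane-cytoskeleton linker Ank3 at 1.58, Tmem200a at 1.42, Lum at 1.31, the ectonucleotidase Enpp3 at 1.26 and the neuropeptide gene Vip at 1.25. Other probes gave 1.29 and 0.31 for Rtkn2, 1.03 for Ank3, 0.58 for Tmem200a and 1.40 for Enpp3. Lum, which belongs to the same proteoglycan family as Dcn, thus differed in the opposite direction from Dcn.

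Some called genes had 1 genotype not well above background on either array, so that only a bound can be given. In G1KO 9330159F19Rik was at least 25.8-fold lower, which places it beyond Dcn and Tspan8, Soga3 at least 10.1-fold lower and Slc16a9, a carboxylate transporter, at least 2.13-fold lower. The amino acid transporter Slc6a15 was at least 2.57-fold higher and Myb, a transcription factor of proliferating progenitors, at least 2.45-fold higher. In G2KO Plxnc1, a semaphorin receptor, was at least 5.66-fold lower and Vnn1 at least 2.08-fold lower, and BB531021 and the deubiquitinase Usp44 were at least 2.55-fold and 2.17-fold higher.

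In the RNA labelled G2KO the gene furthest above WT, among those above background in both genotypes, was Cd24a, a surface glycoprotein, with 4.24 and 4.07 on the arrays and a mean of 4.15 ± 0.12. Near-identical retrocopies of Cd24a are known, and its probe may read them too. Col18a1 had 3.55 and 3.66, and its second probe gave 2.76. Phlda1, a pleckstrin homology-like protein often induced by growth signals, had 2.84 ± 0.04, and Ank3 had 2.76 ± 0.05. The unnamed transcript B230208H11Rik had 2.26, the scaffold protein Grip1 1.99, the RNA-binding protein Celf5 1.98, the matricellular factor Ccn2 1.90 ± 0.34, Slc16a9 1.88 and Glipr1 1.74. Other probes gave 2.09 for Ank3, 1.25 for Grip1 and 0.36 for Celf5. The choice of these genes required 2-fold on each array, so agreement of the arrays at that level is no result. Ccn2 had the widest gap between them, 2.14 and 1.66.

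Below WT in G2KO the first was Alx1, on the same terms, a homeobox factor of craniofacial mesenchyme, with -4.68 and -4.55, which was not above background in either culture of the G1KO comparison. Sash1, a scaffold protein of signalling, had -3.88 ± 0.19, while its second probe gave -0.57. Plagl1 had -3.44 and -3.51, and its second probe gave -1.13. The laminin chain Lama2 had -3.33 ± 0.07 and -2.71 at its second probe. The potassium channel subunit Kcnmb4 had -3.20, and Stat6, the factor of interleukin 4 signalling, had -3.13 ± 0.06, with -1.47 and -0.65 at its other probes. BF160261 had -3.42, the glutathione transferase Gstt3 -3.00, Ptprb -2.91 and the ectonucleotidase Enpp1 -2.70. Where a gene had several probes the brightest gave the largest difference in each of these cases, and the direction was the same at every probe.

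**Figure D4:**
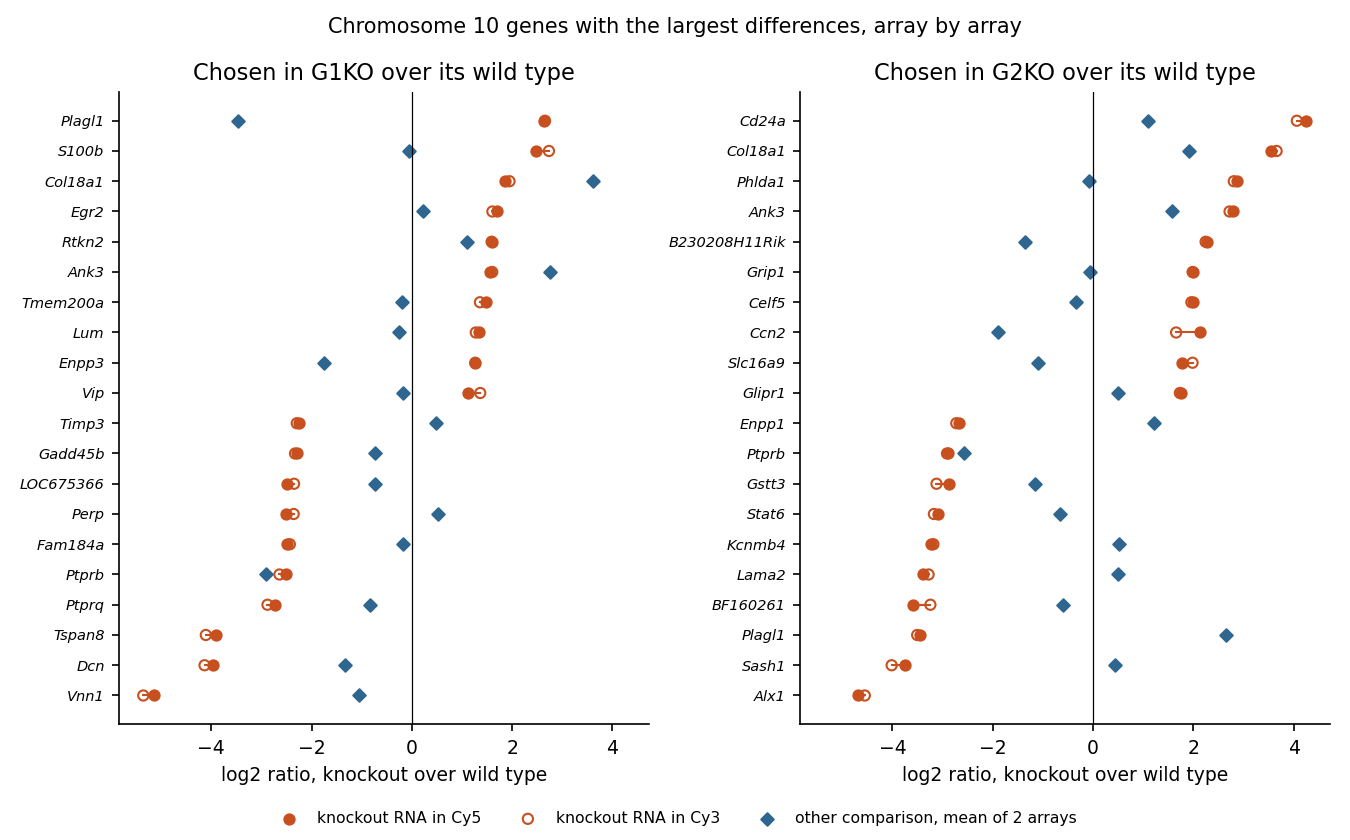
Log2 ratio (x axis) of the 10 chromosome 10 genes furthest above and the 10 furthest below WT in G1KO (left) and in G2KO (right), among genes above background in both genotypes. Filled and open orange circles are the 2 dye orientations, knockout in Cy5 and in Cy3, and blue diamonds are the same genes in the other comparison. The orange pairs lie close together, the widest being Ccn2 at 2.14 and 1.66, and several diamonds lie across 0 from them, such as Plagl1.

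Lists of chromosome 10 genes by role were examined next, of which 115 of 129 genes were matched. As a measure of the counts that follow, 2.48% of all genes tested were called higher and 4.48% lower in G1KO, and 2.74% and 4.84% in G2KO. The lists were written with earlier results known and hold few genes, so the counts describe their members alone. All their genes lie on chromosome 10. Its own median was -0.29 in G1KO, with 78.5% of genes below 0, and 0.14 in G2KO, with 67.7% above 0. The chromosome was chosen for its low G1KO median, so a list median below 0 there is no separate result. The list of cell cycle, replication and damage response genes had 30 tested in both comparisons. In G1KO it had a median of -0.31 with 23 of 30 genes below 0, and Plagl1 was called higher and Perp and Gadd45b lower. In G2KO its median was 0.32 with 24 of 30 above 0. Mdm2 was called higher there with 1.68 and 1.70 on the arrays, and so was Dna2, a nuclease-helicase of replication, at 1.27, while Plagl1 was called lower. In G1KO Mdm2 had -1.01 and -0.83 and was not called. The kinase Cdk1, which brings cells into mitosis, had -0.38 ± 0.08 in G1KO and 0.81 ± 0.10 in G2KO, but its second probe gave -0.23 and 0.10. Cdk2 had -0.31 and 0.30, and Cdk4 had -0.14 and 0.34. The primase subunit Prim1 had -0.14 and 0.96, the apoptosome protein Apaf1 -0.60 and 0.64, and the E2F repressor E2f7 -0.63 and 0.88. In G2KO the second probe of E2f7 gave 0.31, and the other probes of Apaf1 gave 0.67 and 0.21. The second probe of Mdm2 gave -0.70 and 1.38, and the other probes of Dna2 gave 1.27 and 0.26 in G2KO. Cdk1, Cdk2, Cdk4, Prim1, Apaf1 and E2f7 were not called in either comparison.

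The list of ribosome, mitochondria and metabolism genes had 0 genes called in either comparison. Their median was -0.42 in G1KO, with 18 of 21 below 0 and a range of -0.71 to 0.52, and 0.33 in G2KO, with 21 of 22 above 0 and a range of -0.20 to 0.86. The ribosomal protein Rps15 had -0.43 and -0.30 on the G1KO arrays and 0.60 and 0.67 on those of G2KO. The elongation factor Eef2 had -0.42 ± 0.09 and 0.41 ± 0.13, the ATP synthase subunit Atp5d -0.37 ± 0.01 and 0.40 with 0.41 and 0.40 on the arrays, and Gpx4, the peroxidase that guards membrane lipids, -0.52 ± 0.13 and 0.50 ± 0.13. The phosphate carrier Slc25a3 was the lowest in G1KO, at -0.71, and had 0.20 in G2KO. Pfkl, a phosphofructokinase of glycolysis, was an exception with 0.52 and 0.86. The very bright probe of Rpl41 differed between the dye orientations, with 0.06 and -0.998 in G1KO and 1.08 and -0.03 in G2KO. It was not alone in the list. Myl6 had -0.22 and -0.90 in G1KO and 0.58 and -0.06 in G2KO, and Rps12 -0.36 and -0.99, then 0.71 and 0.09. The chosen probe of Atp5b had 0.10 and -0.77, then 0.47 and -0.15. In Rps15 and Atp5d, given above, the arrays lay closer together.

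Of the matrix list, in G1KO 18 of its 24 genes were tested, with a median of 0.03, 3 called higher (Col18a1, Lum and Enpp1) and 5 called lower (Dcn, Timp3, Ccn2, Gja1 and Col6a1). In G2KO 19 were tested, with a median of -0.16, 2 called higher (Col18a1 and Ccn2) and 6 called lower. The latter were Lama2, Enpp1, Col6a2, Col6a1, Chst11 and Dcn. The fibroblast markers Pdgfra, Thy1, Col3a1 and Col1a2 were lower in G2KO too, as given above, and their part in these differences was not tested. The neighbouring collagen VI genes lay on the same side, Col6a1 at -1.09 ± 0.05 and Col6a2 at -0.84 ± 0.14 in G1KO, and -1.90 ± 0.09 and -2.20 ± 0.19 in G2KO. Gja1, the gap junction protein connexin 43, had -1.85 ± 0.09 in G1KO and -0.11 ± 0.10 in G2KO. Timp3 had -2.27 in G1KO and 0.49 in G2KO.

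Among growth factor and signalling genes the G1KO median was -0.64 over 23 genes, with 6 called lower and 0 higher. Beside Ptprb these were Tnfaip3, the feedback inhibitor of NF-kB, at -2.24 ± 0.05, the stress kinase Map3k5 at -1.55 ± 0.06, the receptor Erbb3 at -1.28, Dusp6, a phosphatase of ERK, at -1.17 ± 0.07, and the adaptor Traf3ip2 at -1.07 ± 0.03. In G2KO the median was -0.17 over 25 genes, with 5 called lower, namely Stat6, Ptprb, Traf3ip2, Socs2 and Irak3, and Ptprk called higher at 1.41 ± 0.13. Dusp6 had 0.94 and Tnfaip3 0.53 there. Of the list of developmental transcription factors and regulators, which had medians of -0.09 over 17 genes and 0.24 over 16, Egr2 and Myb were called higher and Lin28b lower in G1KO. In G2KO Phlda1 and Eya4 were called higher, and Alx1 and Cited2 lower. Of these, Lin28b is an RNA-binding protein and Phlda1 a pleckstrin homology-like protein, so neither is a transcription factor in the strict sense. Over all genes tested the medians were -0.002 in G1KO and -0.02 in G2KO, and over all chromosome 10 genes -0.29 and 0.14. The signalling list stood below 0 in both comparisons. The cell cycle and ribosome lists lay on opposite sides of 0, as did chromosome 10 as a whole.

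Of the 755 genes tested in both comparisons, 68 were called in either direction in G1KO, where 6.97% of all genes tested were, and 58 in G2KO, where 7.58% were. Called in both were 20, which is 29.4% of the former and 34.5% of the latter. On the other autosomes the shares were 32.6% and 27.2%, near those of chromosome 10. Of the 20, 11 were called in the same direction, and elsewhere 131 of 288 were. Higher in both were Col18a1, Ank3, Cd24a and Rtkn2, and lower in both were Dcn, Vnn1, Ptprb, Gstt3, Col6a1, Traf3ip2 and Fam13c. The other 9 were called in opposite directions. B230208H11Rik, the syntaxin Stx11, Ccn2, Tspan15 and Slc16a9 were lower in G1KO and higher in G2KO, and Plagl1, Enpp1, Enpp3 and Slc6a15 the reverse. On build mm8, 3 of these probes lie in a row, B230208H11Rik from 12606924, Stx11 from 12630880 and Plagl1 from 12821672, and another 3 lie from 24287891 to 24463341, namely Ccn2, Enpp1 and Enpp3. In each of these stretches neighbours differed in opposite directions within the same comparison. The log2 level of Plagl1 was 10.3 in G1KO and 7.65 in its WT, 8.99 in G2KO and 12.5 in its WT, so that the WT cultures held the lowest and the highest level, read on different arrays, and the knockouts lay between them. For Col18a1 the levels were 9.04 and 7.13, and 12.8 and 9.16, and for Dcn 11.5 and 15.5, and 7.72 and 9.06.

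Across the 755 genes the log2 ratios of the 2 comparisons had a Pearson r of 0.03 and a Spearman rho of -0.07, against -0.06 and -0.009 on the other autosomes, as a description over genes that shared the array design, with 2 arrays in each comparison. A ratio below 0 in G1KO and above 0 in G2KO was found for 434 genes, or 57.5%, a share that the choice of the chromosome by its low G1KO values largely sets and from which nothing is read. No RNA was shared between the comparisons.

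**Figure D5:**
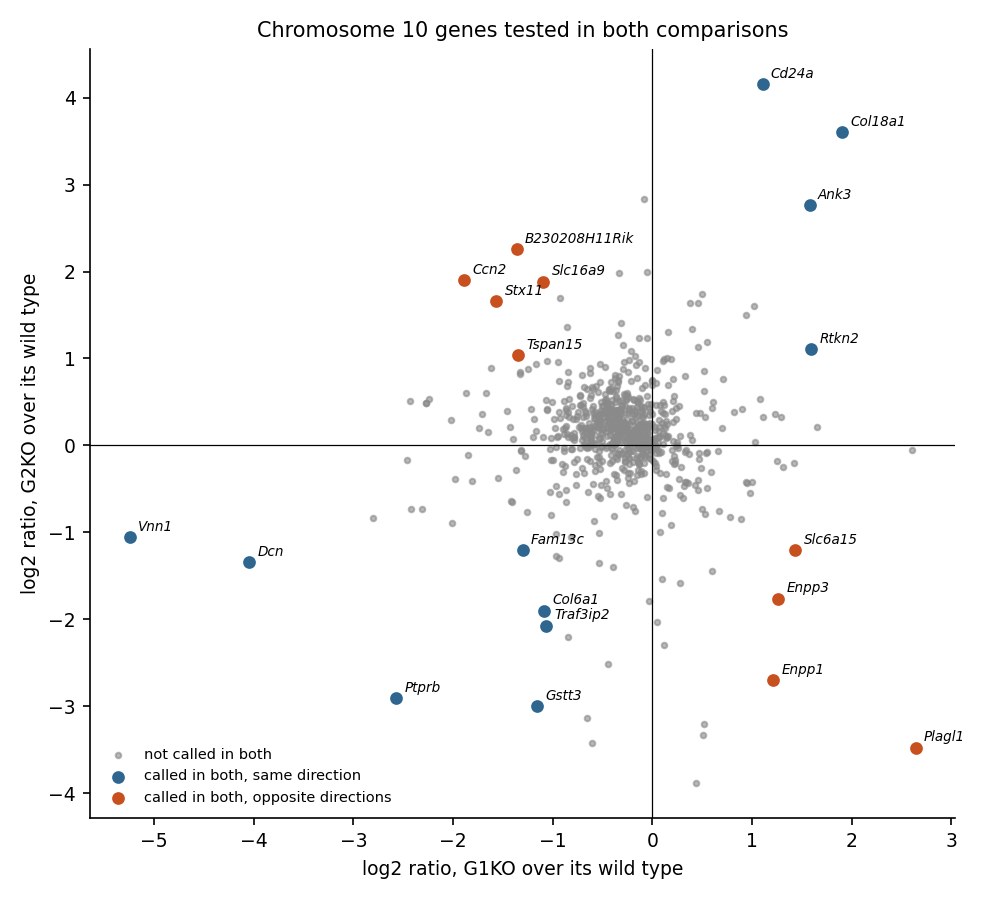
Log2 ratio in G1KO (x axis) against that in G2KO (y axis) for the 755 chromosome 10 genes tested in both comparisons. Blue points were called in both in the same direction (11 genes), orange points in opposite directions (9 genes), and grey points were not called in both. The cloud of grey points lies mostly in the upper left part, where 434 of the genes fall.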

How the data were processed

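RNA of 1 culture per genotype was hybridised to 4 two-colour Agilent arrays, a dye-swapped pair for each comparison. The deposited scanner files hold spot intensity, linear and not background subtracted, from Feature Extraction (10.5.1.1 per the file headers, 9.1 per the submitters' processing notes), with probe positions on build mm8. The deposited series table holds the authors' log10 ratio, which equalled the software's dye-normalised ratio turned to knockout over WT (r of 0.999999 in size on each array). The log10 ratios served as alternatives. Here intensities were background corrected (normexp, offset 50) and loess normalised with limma 3.58.1 in R 4.3.3, flagged spots were left out, and Aquantile gave the levels per channel. Steps were tested on simulated data. The 2 arrays of a comparison were averaged, and a call needed 2-fold on each. With 1 culture per genotype there was no test, and having few arrays sets how precise a value can be. Bounds set the brighter genotype against the lowest signal well above background, or against the dimmer genotype's own signal where that was higher. The genes named were the 10 furthest above and below WT per comparison, the 3 largest bounds each way, genes called in both comparisons, and members of the lists by role. Other genes were named where they stood at the edge of a call. The genes and lists were chosen with earlier results of these data known. Promoters came from RefSeq.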

Additional observations from a re-analysis of the deposited data

Results flagged for a closer look

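The chromosome 10 median had opposite signs in the 2 comparisons, -0.29 in G1KO and 0.14 in G2KO, on both arrays of each. The difference between the comparisons was not tested, since each rests on 1 culture per genotype.

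Single genes were also called in opposite directions, and these differences were not tested either. Plagl1 had 2.64 in G1KO and -3.47 in G2KO. Enpp1 had 1.21 and -2.70, and its neighbour Enpp3 had 1.26 and -1.76. Slc6a15 had 1.43 and -1.20. The reverse order was seen in B230208H11Rik with -1.36 and 2.26, Stx11 with -1.57 and 1.66, Ccn2 with -1.89 and 1.90, Tspan15 with -1.35 and 1.04, and Slc16a9 with -1.09 and 1.88.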

How the results depend on the processing

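The chromosome 10 median kept its sign in every setting tried, and chromosome 10 was the lowest of 19 autosomes in G1KO in each. In G1KO the median was -0.32 without background correction, -0.32 with the scanner software's ratio and with the series table, -0.26 with median centring in place of loess, -0.30 with chromosome 10 spots at weight 0, -0.32 for genes above background in both genotypes, -0.28 with probes averaged and -0.082 with no filter on dim probes. Leaving out either array gave -0.29. In G2KO it was 0.25 with the scanner ratio and the series table, 0.21 with median centring, 0.17 for genes above background in both genotypes and 0.0519 with no filter, and 0.13 to 0.16 with either array left out. Counts of called genes depended on the setting. With the scanner ratio 44 of 797 genes were higher and 91 lower in G1KO, and 60 of 795 higher and 58 lower in G2KO. On the other autosomes 5.45% of genes were then called higher and 6.63% lower in G1KO, and 5.76% and 8.69% in G2KO. With the series table the counts were 44, 90, 59 and 58 in the same order, against 5.44%, 6.63%, 5.76% and 8.68% on the other autosomes. Median centring gave 27 lower in G1KO and 20 higher in G2KO, where 2.28% and 1.44% of genes on the other autosomes were so called. At 1.5-fold the counts were 33 and 161 in G1KO and 89 and 55 in G2KO, and at 4-fold 2, 14, 5 and 15. The shares on the other autosomes at these thresholds are not given, so nothing is read from those counts. With 1 array left out the counts ran from 17 to 20 higher and 69 to 72 lower in G1KO, and from 38 to 41 and 31 to 35 in G2KO. The other autosomes then had 2.72% to 2.80% higher and 4.78% to 4.91% lower in G1KO, and 3.11% to 3.17% and 5.29% to 5.41% in G2KO. The cause of the shifts between settings was not tested. Of the 20 genes furthest from WT in each comparison, none changed sign or came under 2-fold in 10 alternatives. These genes were chosen as called on each array and above background in both genotypes. Leaving out an array or changing the filter could therefore not bring them under 2-fold, and the scanner ratio and the series table hold the same ratio. Of 200 values each, 61 in G1KO and 71 in G2KO moved by more than the SD between arrays, by up to 1.58 and 1.93 on the log2 scale. With the scanner ratio Lum went from 1.31 to 2.85 and Celf5 from 1.98 to 3.92, and with probes averaged Plagl1 went from 2.64 to 1.49. Knockout and WT were paired on each array through the log2 ratio, but no test across biological pairs was possible because each genotype was 1 culture. Signal over background limits the dim probes.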
